A study of Mus musculus with 4 samples.

Results

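The genes described here are the 7 that write, copy and erase methylation of cytosine in CpG dinucleotides: Dnmt1, Dnmt3a, Dnmt3b, Uhrf1, Tet1, Tet2 and Tet3. They were found by symbol among the 56980 genes of the deposited matrices, and all 7 were present under 1 gene ID each. Single cell transcriptomes of sorted dorsal skin epithelium were compared between 2 control (Ctrl) and 2 triple knockout (TKO) libraries, each counted as 1 sample. Both groups carried Suv39h1 f/f, Setdb1 f/f and Suv39h2-/- alleles and received Tamoxifen, so that the control animals already lacked Suv39h2. TKO animals carried K14CreERT2+, a Cre recombinase under the K14 promoter, which basal keratinocytes use, and Ctrl animals were K14CreERT2-. The study describes the recombination as mosaic, so a TKO library can hold cells that kept an intact allele. The embryos were at E16.5 per the labels, whereas the study's list of litters gives a younger age for its single cell litter. The sort took cells positive for Epcam and α6 integrin, markers of epithelial cells and of cells that touch the basement membrane.

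DNA methylation is copied at each round of replication. UHRF1 binds the hemimethylated sites left behind the fork and brings DNMT1, the maintenance methyltransferase, to them. DNMT3A and DNMT3B place methyl groups on sites that had none, and TET1, TET2 and TET3 oxidize 5-methylcytosine as a step towards its removal. Setdb1, Suv39h1 and Suv39h2 encode the enzymes that place H3K9me3, a mark of silent chromatin that often lies on the same repeats as DNA methylation. In skin, DNMT1 and UHRF1 are known for keeping basal progenitors dividing. Because maintenance is tied to replication, transcript levels were described within cell cycle calls as well as over all cells.

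The libraries held 3804 to 5785 barcodes and 70749496 to 89655247 UMIs, molecules counted once each. Of 11221 cells with at least 2000 genes and under 10% mitochondrial UMIs, and after doublets were left out, 9212 were keratinocytes. They comprised 4839 basal-like, 2146 hair follicle-like, 2015 differentiating-like and 135 Merkel-like cells, named from marker genes. A further 77 cells of 1 cluster led by Psca, Mal and Krt4, 74 of them from TKO, stayed unnamed. The classes came from components aligned across libraries, and the makeup of a class can differ between the groups. In components left unaligned, a basal-like cluster led by Bex1, Tagln and Acta2 took 351 and 94 cells from the TKO libraries but 1 and 0 from Ctrl. Another, led by Actc1 and Myh15 and with Myog, Ttn and other muscle genes in its top 10, held 8 and 3 against 199 and 160. Both were counted as basal-like by score, with no basal marker among their 10 leading genes. A differentiating-like cluster led by Psca, Krt16 and Sprr1b held 10 and 3 cells of Ctrl and 124 and 293 of TKO, and one led by Ly6g6c, Calml3 and Calm4 held 419 and 206 against 21 and 18. The part of these clusters in the class values was not tested. The Merkel-like cluster held 35 and 26 Ctrl and 48 and 26 TKO cells, but with unaligned components 31 and 22 against 0 and 0, and the Merkel markers summed to 193 and 173 CPM over Ctrl and 23.0 and 15.6 CPM over TKO keratinocytes, so its TKO cells are not shown to be Merkel cells. The labels call the cells basal, and the 8 basal markers, led by Krt14, summed to 11203 to 15732 CPM (the usual scaling of UMIs to the summed total) over the keratinocytes of a library. The 10 differentiation markers, led by Krt10, summed to 17905 and 10434 CPM in Ctrl replicates 1 and 2 and to 4235 and 10475 CPM in TKO. Within classes the groups did not overlap: these markers summed to 53068 and 46538 CPM in differentiating-like cells of Ctrl and 26078 and 39043 CPM in TKO, and the hair follicle markers to 1965 and 2044 CPM in hair follicle-like cells against 1292 and 1909 CPM. Basal markers in basal-like cells summed to 18265 and 20904 against 14169 and 18249 CPM. Their part in the class results was not tested. Keratinocytes were deeper in TKO, with medians of 29971.5 and 28051.5 UMIs per cell against 21966 and 17329 in Ctrl. Libraries shared 2 to 12 barcodes with each other. For each class, 1 sum per library entered the tests, so that n = 2 per group; the methods name 1 embryo per library, and p-values measure the spread between these.

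The targeted genes were examined first. Setdb1 stood at 67.7 and 58.2 CPM in Ctrl keratinocytes and at 39.5 and 42.4 CPM in TKO, and it fell by 0.64 ± 0.13 on the log2 scale (SE; adjusted p = 0.0449, edgeR's quasi-likelihood test with Benjamini-Hochberg adjustment over all genes). That call held without TKO replicate 2 (adjusted p = 0.0468) and was lost without Ctrl replicate 1, Ctrl replicate 2 or TKO replicate 1 (adjusted p = 0.181, 0.0701 and 0.105), at changes of -0.77 to -0.51. Suv39h1 was at 24.4 and 25.3 CPM in Ctrl and 24.9 and 19.96 CPM in TKO, a difference that did not pass (adjusted p = 0.462). In G2/M-called keratinocytes it fell by 0.45 ± 0.11 on the log2 scale (adjusted p = 0.0396, edgeR), beside 4.89% of genes lower, a call lost with any 1 library left out (adjusted p = 0.0751 to 0.191). In the other 5 class and phase fits it did not pass, with estimates of -0.50 to -0.087. Suv39h2 was at 13.9 and 17.2 CPM against 22.4 and 16.1 CPM, with deleted alleles in both groups. The positions of the deleted exons relative to the 3′ reads are not given in the sources used here, so these counts do not measure the deletion itself.

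Among the 7 genes, Dnmt3b was the one whose level differed between the genotypes, by about a doubling in TKO, and the other 6 did not pass the test in any class or phase. In all keratinocytes 1 of the 7 passed, beside 6.69% of all 20031 genes tested. Dnmt3b, a de novo methyltransferase (GRCm39 chromosome 2, 153490861 to 153529650, ENSMUSG00000027478), gave 566 and 551 UMIs in Ctrl, or 8.28 and 9.60 CPM. The TKO libraries gave 1071 and 845 UMIs, or 20.3 and 15.6 CPM, so both TKO libraries lay above both Ctrl libraries. The log2 change was 0.98 ± 0.17 (SE; adjusted p = 0.0354, edgeR). The call held without TKO replicate 2 (adjusted p = 0.0185) but was lost with any other library left out: the adjusted p was 0.138, 0.0997 and 0.0681 without Ctrl replicate 1, Ctrl replicate 2 or TKO replicate 1, with log2 changes of 0.89, 1.07 and 0.81. Over the 11 alternative settings the change ranged from 0.81 to 1.15, the adjusted p reached 0.138 at most, and 6 settings kept the call. By GENCODE vM39, Dnmt3b overlaps Gm75128 on its own strand and Dnmt3bos on the opposite strand, and a share of its reads that belongs to Gm75128 cannot be told apart.

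Classes were taken next, since Dnmt3b was not even among them. In basal-like cells Dnmt3b stood at 10.96 and 11.14 CPM in Ctrl and 22.4 and 20.8 CPM in TKO, and rose by 0.97 ± 0.13 (log2, SE; adjusted p = 0.00771, edgeR), the only 1 of the 7 to pass, beside 12.1% of 17485 genes (7.7% higher and 4.43% lower in TKO). The TKO libraries were again both above the Ctrl libraries, by more than the spread within either group. Without Ctrl replicate 1 the adjusted p was 0.0616, and with any other library left out the call held at 0.95 to 0.99. Classes drawn from unaligned components gave 1.07 (adjusted p = 0.00403), but there the basal-like class takes in the clusters led by Actc1 and Bex1, nearly all TKO cells, so that unlike cells are compared. The aligned classes draw on the same keratinocytes and are not shown to be free of this. In hair follicle-like cells the level was 13.5 and 11.9 CPM in Ctrl and 27.1 and 20.2 CPM in TKO, a rise of 0.93 ± 0.18 (adjusted p = 0.0205), beside 13.6% of genes passing (7.62% higher and 6.03% lower). There the call was lost without Ctrl replicate 2 (0.83, adjusted p = 0.130), with cells thinned to 5000 UMIs (0.87), and with classes drawn from components not aligned across libraries (0.52). The hair follicle-like cells of TKO replicate 2 also carried 329 CPM of 6 red cell genes against 12.9 to 21.1 CPM in the other libraries, whose part in the result was not tested.

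Differentiating-like cells held little Dnmt3b in either group. Their sums were 20 and 28 UMIs against 25 and 26, or 0.901, 2.31, 3.16 and 1.86 CPM, and the groups overlapped (log2 change 0.60 ± 0.55, adjusted p = 0.630). None of the 7 genes passed there, at a background of 1.85% of genes by edgeR. Dnmt1 alone, at a log2 change of 0.36, had an unadjusted p under 0.05 in that class by edgeR. DESeq2 called none of the 7 either, beside 4.32% of genes. The rise of Dnmt3b was not shown to differ between classes: the difference of its change in differentiating-like from that in basal-like cells was -0.31 ± 0.46 (adjusted p = 0.811, in a fit where 0.514% of genes passed), and in hair follicle-like from basal-like cells it was -0.00 ± 0.17 (adjusted p = 1, edgeR with library as a block). At this depth a class difference of the former size could not be detected in differentiating-like cells. In all 4 libraries the level was 4.83 to 12.2 times higher in basal-like than in differentiating-like cells. Over the 19 clusters with at least 20 cells in each group, Dnmt3b was higher in TKO in 18, though clusters of a library are not replicates. The highest cluster level in TKO, 39.1 CPM against 17.7 CPM in Ctrl, was in the hair follicle-like cluster led by Dkk4, Tagln and Sp5. Bex1 and Acta2 were also among its leading genes, as in the unaligned cluster made up almost wholly of TKO cells.

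**Figure D1:**
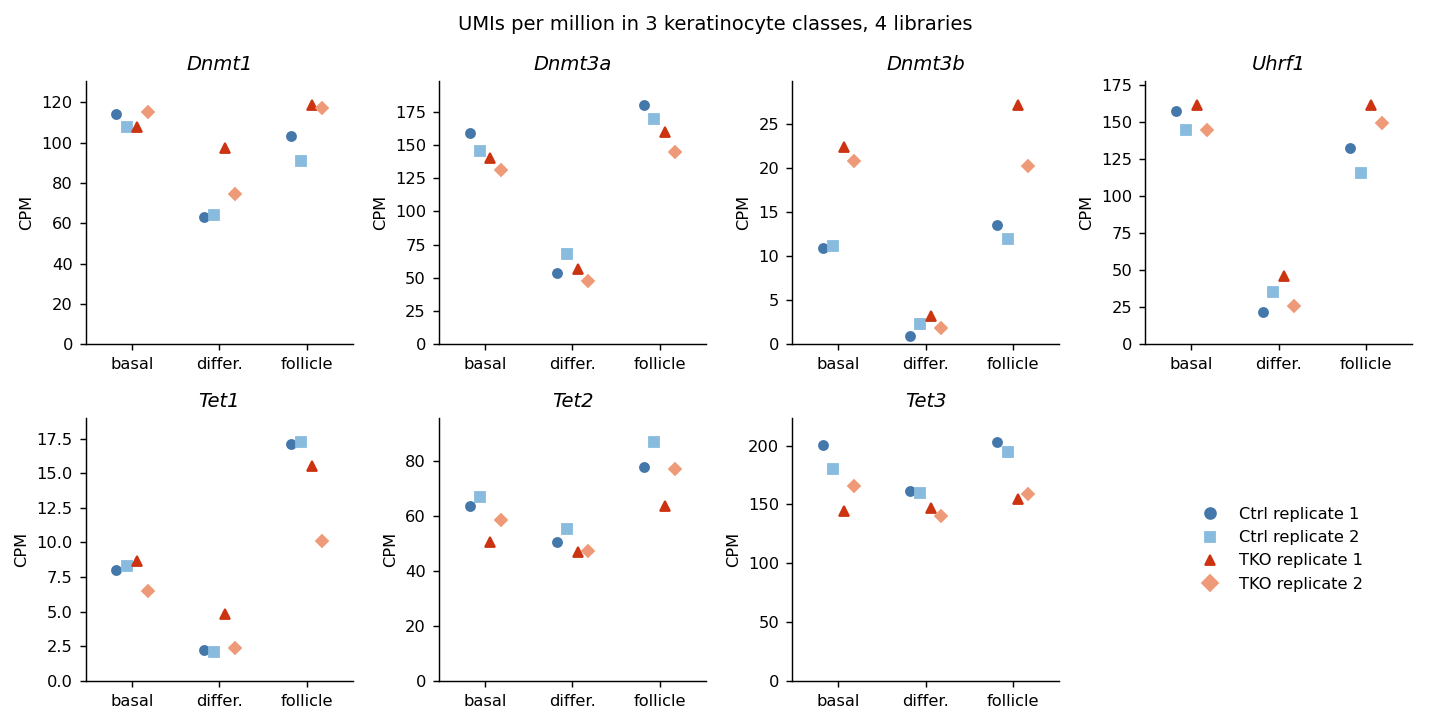
Level of each of the 7 genes (CPM of the summed class; linear axes from 0) in basal-like (basal), differentiating-like (differ.) and hair follicle-like (follicle) cells, 1 point per library. Dnmt3b in TKO lay at 20.8 and 22.4 CPM in basal-like cells against 10.96 and 11.14 CPM in Ctrl, whereas the points of Dnmt1 and Uhrf1 overlapped there.

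Among the remaining writers, Dnmt3a (chromosome 12, 3856007 to 3964443), the other de novo methyltransferase, stood at 129 and 135 CPM in Ctrl keratinocytes and 129 and 111 CPM in TKO. The groups overlapped and the log2 change was -0.16 ± 0.10 (adjusted p = 0.364). In basal-like cells both TKO libraries, at 140 and 131 CPM, lay below the Ctrl libraries at 159 and 145 CPM, and the change of -0.16 ± 0.10 did not pass either (adjusted p = 0.332). Its estimates were negative in all 7 fits, from -0.42 to -0.12, with no adjusted p below 0.264. Within a library Dnmt3a was 2.14 to 2.97 times higher in basal-like than in differentiating-like cells. GENCODE places Gm60243 and Dnmt3aos on the opposite strand of Dnmt3a.

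Dnmt1 (chromosome 9, 20817945 to 20871184) and Uhrf1 (chromosome 17, 56610275 to 56630489), the maintenance enzyme and its recruiter, differed little. Dnmt1 was at 94.5 and 93.9 CPM in Ctrl keratinocytes and 106 and 103 CPM in TKO (log2 change 0.13 ± 0.08, adjusted p = 0.401). Uhrf1 was at 107 and 113 CPM in Ctrl and 138 and 112 CPM in TKO, with TKO replicate 1 standing alone at the top (0.16 ± 0.11, adjusted p = 0.434). In basal-like cells the groups overlapped for both genes and the estimates were 0.01 ± 0.10 and 0.02 ± 0.10.

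In hair follicle-like cells both maintenance genes had higher TKO values. Uhrf1 was at 133 and 116 CPM in Ctrl and 162 and 149 CPM in TKO (0.37 ± 0.11, adjusted p = 0.0672), and Dnmt1 at 103 and 90.7 CPM in Ctrl and 119 and 117 CPM in TKO (0.33 ± 0.11, adjusted p = 0.0883). Neither passed the test. The difference of the TKO change between hair follicle-like and basal-like cells was tested in its own fit, and 1 of the 7 genes passed, beside 3.35% of 17942 genes. That gene was Uhrf1, with a difference of 0.39 ± 0.07 on the log2 scale (adjusted p = 0.0269). Dnmt1 gave 0.36 ± 0.09 (adjusted p = 0.0649). Uhrf1 kept its sign in all 10 alternative settings but passed in 2, and the adjusted p was 0.0736 to 0.182 when any 1 library was left out. The phase shares moved with it. Of hair follicle-like cells, 27.9% and 23.4% were S-called in Ctrl and 35.8% and 31.0% in TKO, and of basal-like cells 35.0% and 31.0% against 32.9% and 33.7%. G2/M calls made up 28.9% and 20.97% of hair follicle-like cells in Ctrl and 42.4% and 34.1% in TKO, and 33.2% and 30.2% of basal-like cells against 52.1% and 47.7%. Cells called neither were fewer in TKO in both classes, at 21.9% and 34.9% against 43.2% and 55.6% in hair follicle-like cells and 15.03% and 18.7% against 31.9% and 38.8% in basal-like cells. Over all keratinocytes Uhrf1 was 2.75 to 4.08 times higher in G2/M-called cells than in those called neither. The clusters of the hair follicle-like class were also filled unevenly. The one led by Zfpm2, Pthlh and Col25a1, with marker scores of 0.70 for hair follicle and 0.67 for basal, held 110 and 155 Ctrl and 26 and 29 TKO cells, and Uhrf1 was lowest there, at 33.8 CPM over the Ctrl cells and 74.6 CPM over the TKO cells. In the cluster led by Lgr5 it was at 123 against 169 CPM, and in that led by Shh at 133 against 143 CPM. The cluster led by Dkk4 and Nr3c2 gave 159 against 162 CPM, and that led by Dkk4 and Tagln 171 against 158 CPM. The part of phases and clusters in the result was not tested. Among S-called hair follicle-like cells alone, Uhrf1 was at 216 and 190 CPM in Ctrl and 228 and 227 CPM in TKO.

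Of the erasers, Tet3 and Tet2 had negative estimates in all 7 fits, and Tet1 in 6 of them. Tet3 (chromosome 6, 83339355 to 83436066) was at 188 and 180 CPM in Ctrl keratinocytes and 147 and 156 CPM in TKO, and both TKO libraries lay below both Ctrl libraries. Its log2 change of -0.30 ± 0.10 did not pass (adjusted p = 0.144). Among the alternatives it passed only with the crossed replicate block, added after the data were seen, beside 17.3% of genes. The nearest it came to the threshold was in hair follicle-like cells, where 203 and 195 CPM in Ctrl stood against 154 and 159 CPM in TKO (-0.30 ± 0.09, adjusted p = 0.0777). Over the 7 fits its estimates ran from -0.35 to -0.23. Tet2 (chromosome 3, 133169436 to 133250900) was at 62.9 and 70.0 CPM in Ctrl keratinocytes and 53.2 and 60.3 CPM in TKO (-0.24 ± 0.12, adjusted p = 0.270), with estimates from -0.26 to -0.15 over the fits. Tet3 overlaps 5430434F05Rik, Gm67132 and Mir6374 on its own strand, so its sums may include their reads.

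Tet1 (chromosome 10, 62640349 to 62744775) had few counts, 345 to 551 UMIs per library in all keratinocytes. It was at 8.06 and 9.31 CPM in Ctrl and 9.86 and 6.35 CPM in TKO, and TKO replicates 1 and 2 lay on either side of the Ctrl pair. Within a library it was 1.55 to 2.14 times higher in hair follicle-like than in basal-like cells, the widest such ratio of the 7 genes. In hair follicle-like cells it stood at 17.1 and 17.3 CPM in Ctrl and 15.5 and 10.1 CPM in TKO (-0.39 ± 0.21, adjusted p = 0.277). Without TKO replicate 1 that change was -0.70 and passed, so that this call rested on TKO replicate 2. In differentiating-like cells it was at 2.25, 2.06, 4.80 and 2.36 CPM (25 to 50 UMIs; log2 change 0.61 ± 0.41, adjusted p = 0.511), below what would allow a change of its size there to be read.

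**Figure D2:**
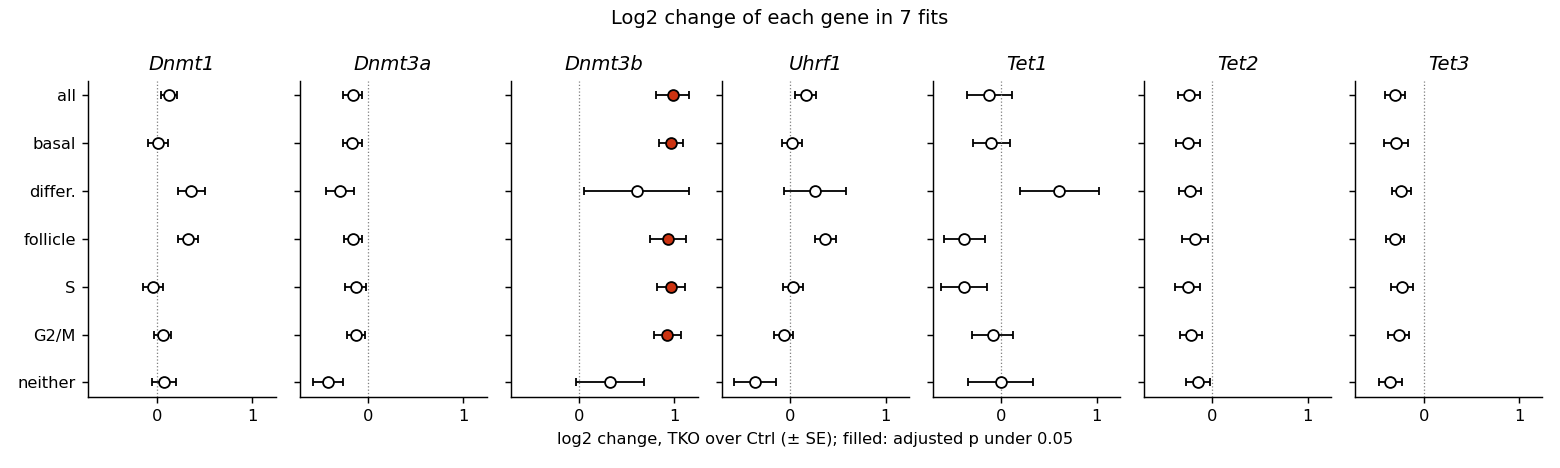
Log2 change of each of the 7 genes, TKO over Ctrl, in 7 fits named on the vertical axis (all keratinocytes, 3 classes and 3 phase calls); bars are ± 1 SE and filled points have an adjusted p under 0.05. Dnmt3b is filled in 5 fits at 0.93 to 0.98, and no point of the other 6 genes is filled.

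Cell cycle calls were then set beside these levels. Each cell was thinned to 5000 UMIs, scored for 40 S phase and 54 G2/M genes from which the 7 genes were absent, and called S, G2/M or neither. Ctrl libraries had 25.9% and 24.2% of keratinocytes called G2/M, and TKO libraries 45.0% and 37.5%. S calls made up 24.0% and 24.1% of Ctrl and 28.8% and 25.4% of TKO cells, while those called neither made up 50.1% and 51.7% against 26.3% and 37.1%. The groups did not overlap for any of the 3 shares, but an exact two-sided permutation test of 2 against 2 libraries cannot go below p = 0.3333, which is the value all 3 took. Of 9137 cells deep enough to be called, 13.2% lay within 0.05 of a score threshold. The marker genes behaved unevenly within the calls. Mki67, a proliferation antigen, was at 536 and 477 CPM in G2/M-called Ctrl cells and 350 and 384 CPM in TKO, where 8 of the 54 G2/M genes fell and none rose by edgeR, beside 4.89% of 16796 genes lower. Mcm5, a replication licensing factor, was at 25.3 and 32.5 CPM in the same Ctrl cells and 51.0 and 41.5 CPM in TKO, among 8 of 40 S phase genes that rose there and 1, E2f8, that fell, beside 8.47% of genes higher. Over all keratinocytes Mki67 was at 186 and 174 CPM in Ctrl and 222 and 200.1 CPM in TKO, higher in both TKO libraries. By staining of E16.5 skin, the study reported the opposite, fewer basal cells with EdU and less Ki67 protein in TKO. Phase calls from RNA do not measure rates of division. In S-called cells 10 of the 54 G2/M genes rose and none fell, beside 5.18% of genes higher, among them Ccnb2 (log2 change 1.96), Cenpa (1.73), Gas2l3 (1.54), Cdca3 (1.06) and Ube2c (1.03). In cells called neither, 3 of them rose, Psrc1 (2.74), Gtse1 (2.22) and Ckap2 (1.88), beside 1.96% of genes higher. Without Ctrl replicate 1, 2 of these 10 calls in S-called cells, Ccnb2 and Cenpa, held and without Ctrl replicate 2, 6 held, while Psrc1 and Ckap2 passed in cells called neither with each library left out. Of the 8 falls and 9 other changes in G2/M-called cells, 1 to 4 and 2 to 8 held with 1 library left out. Listed transcripts thus differed between the genotypes within each of the 3 calls, on which the comparisons within calls rest. A share of free RNA in these calls was not tested.

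The 2 maintenance genes followed S phase in each library. Uhrf1 was at 225 and 208 CPM in S-called Ctrl cells and 224 and 215 CPM in S-called TKO cells, against 34.6, 49.996, 39.5 and 28.6 CPM in cells called neither. The ratio of S-called to neither was 4.16 to 7.52 over the 4 libraries. Dnmt1 was at 167 and 160 CPM in S-called Ctrl cells and 153 and 163 CPM in TKO, a ratio of 2.42 to 2.89. Dnmt3b gave 1.53 to 3.94, Dnmt3a 1.24 to 1.85, Tet1 0.93 to 1.51, Tet2 0.77 to 0.98 and Tet3 0.89 to 1.03. Cells called neither include most differentiating-like cells, so the ratios were also taken within basal-like cells. There they were 2.80 to 3.72 for Uhrf1, 2.53 to 2.92 for Dnmt1, 1.47, 1.0999, 1.96 and 2.15 for Dnmt3b in the 4 libraries and 1.05 to 1.18 for Dnmt3a. Those of Tet2 (0.67 to 0.81) and Tet3 (0.78 to 0.85) were below 1 in every library. Tet1 gave 1.16 and 1.69 in Ctrl and 0.61 and 0.72 in TKO, on opposite sides of 1, from 30 to 105 UMIs a value.

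**Figure D3:**
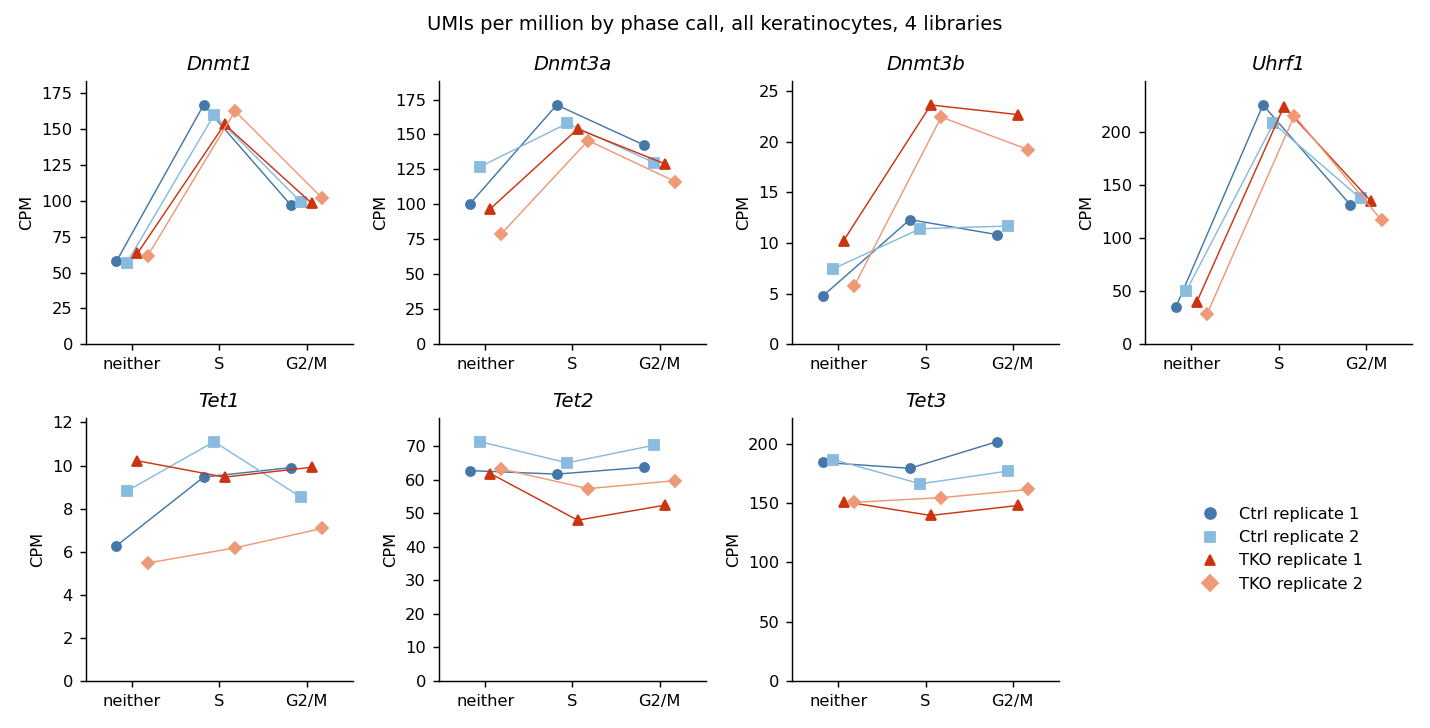
Level of each gene (CPM; linear axes from 0) in keratinocytes called neither S nor G2/M, S, or G2/M; lines join the values of 1 library and carry no time order. Uhrf1 went from 28.6 to 49.996 CPM in cells called neither to 208 to 225 CPM in S-called cells in all 4 libraries, and Tet3 stayed between 140 and 202 CPM.

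Annotated promoter windows of the maintenance genes are shown because these genes moved together with S phase, and one of Dnmt3b because it was the gene that passed between genotypes. RefSeq windows of 300 bases (GRCm38.p6, from 250 before to 50 after a start site) were matched by symbol for all 7 genes, 12 windows in all, with 3 for Dnmt1 and 2 for Uhrf1. They were searched on both strands for 3 E2F-type motifs, TTTCGCGC, TTTGGCGC and TTTCCCGC, E2F being the factor family that controls S phase genes. Capitals mark a motif in the 250 bases before the start, printed 5′ to 3′ on the gene's strand: Dnmt1 at chr9:20952624-20952873 (minus strand), Uhrf1 at chr17:56304063-56304312 (plus) and Dnmt3b at chr2:153649199-153649448 (plus).
Dnmt1: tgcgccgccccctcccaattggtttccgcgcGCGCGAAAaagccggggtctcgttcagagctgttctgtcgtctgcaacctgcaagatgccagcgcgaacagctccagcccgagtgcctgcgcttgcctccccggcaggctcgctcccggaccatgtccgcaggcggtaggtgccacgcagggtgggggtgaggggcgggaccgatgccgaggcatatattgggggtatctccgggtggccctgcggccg
Uhrf1: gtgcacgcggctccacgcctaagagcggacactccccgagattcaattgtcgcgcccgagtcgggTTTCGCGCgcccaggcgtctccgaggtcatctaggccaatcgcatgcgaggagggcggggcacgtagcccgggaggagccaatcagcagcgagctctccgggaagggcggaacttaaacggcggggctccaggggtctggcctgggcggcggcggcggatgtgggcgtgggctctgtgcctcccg
Dnmt3b: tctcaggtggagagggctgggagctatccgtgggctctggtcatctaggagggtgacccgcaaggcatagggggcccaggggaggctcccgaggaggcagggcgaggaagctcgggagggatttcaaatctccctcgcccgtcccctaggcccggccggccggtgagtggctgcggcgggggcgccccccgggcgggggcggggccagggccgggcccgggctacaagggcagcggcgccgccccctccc
The 3 stretches held 26, 30 and 21 CpG dinucleotides. One of the Dnmt1 windows, the one printed, held TTTCGCGC on the minus strand of the window, 219 bases before its own start site, and TTTGGCGC 33 bases after it. The other start sites listed for Dnmt1 lie upstream of that site, so the printed stretch can hold transcribed bases of the gene. Which start site these cells used was not tested. The printed Uhrf1 window held TTTCGCGC 185 bases before the start, and the other windows of both genes held no motif. No matches overlapped each other. Windows of the other 5 genes held none of the 3 motifs. Of 32851 RefSeq promoters of this length, 1.84% held at least 1, and TTTCGCGC was in 0.323%. These shares are per window and over windows with a median of 7 CpG. The full Dnmt1 and Uhrf1 windows with a motif held 33 each, and the share among windows as rich in CpG was not tested. A match is a description of letters and says nothing of binding in these cells.

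Within a phase call the maintenance genes showed no difference between the genotypes that passed. In S-called cells, Dnmt1 changed by -0.04 ± 0.10 and Uhrf1 by 0.02 ± 0.10 (log2, SE), and 1 of the 7 genes passed, beside 8.5% of 15616 genes. It was Dnmt3b, at 12.3 and 11.4 CPM in Ctrl and 23.6 and 22.4 CPM in TKO (0.96 ± 0.15, adjusted p = 0.0138, edgeR). Both TKO libraries were far above the Ctrl pair, and the ratio of the means was close to that in all keratinocytes. The call was lost without Ctrl replicate 1 (adjusted p = 0.0643), without Ctrl replicate 2 (0.0751) and in thinned cells (0.0641), and 11 of 14 alternatives kept it. In G2/M-called cells Dnmt3b was again the only 1 of the 7 to pass, beside 13.4% of genes, at 10.8 and 11.7 CPM in Ctrl and 22.7 and 19.2 CPM in TKO (0.93 ± 0.15, adjusted p = 0.0122). Leaving out Ctrl replicate 1 raised that adjusted p to 0.0520, and the other 13 alternatives kept the call.

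In cells called neither, none of the 7 passed, beside 2.79% of genes by edgeR. Dnmt3b stood at 4.74 and 7.44 CPM in Ctrl and 10.2 and 5.70 CPM in TKO, on 101 to 200 UMIs, and the groups overlapped (0.33 ± 0.36, adjusted p = 0.736). Tet3 (log2 change -0.35) and Dnmt3a (-0.42) had an unadjusted p under 0.05 by edgeR, and DESeq2 called no member, beside 5.7% of genes. The change of Dnmt3b in S-called cells minus that in cells called neither was 0.65 ± 0.32 (adjusted p = 0.480), so that the difference between phases was not shown, where 4 of 17109 genes passed, or 0.0234%.

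**Figure D4:**
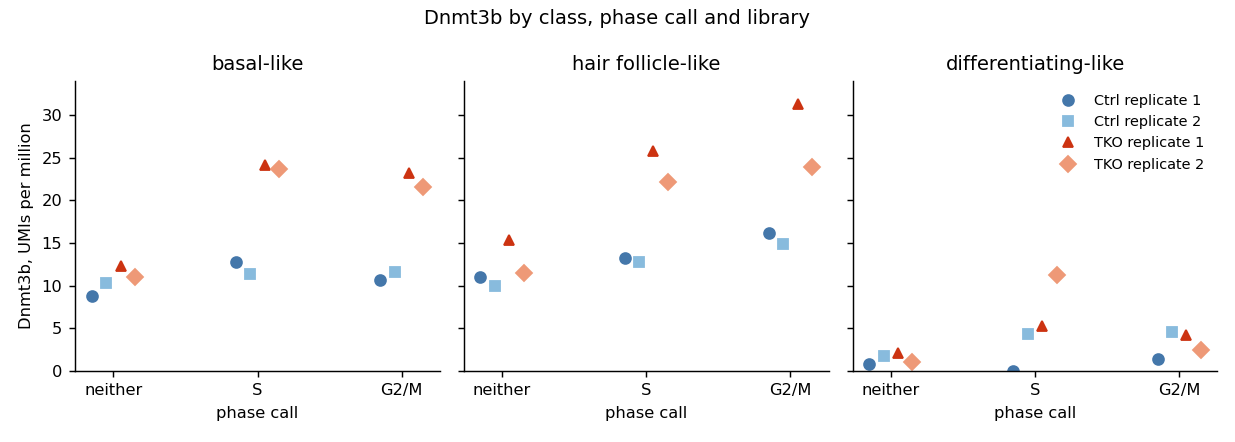
Dnmt3b level (CPM; linear axis from 0) by class and phase call, 1 point per library. In S-called basal-like cells the TKO libraries lay at 24.1 and 23.7 CPM and the Ctrl libraries at 12.8 and 11.4 CPM; among basal-like cells called neither, 12.3 and 11.03 CPM stood against 8.74 and 10.4 CPM.

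Taking class and phase together, Dnmt3b in S-called basal-like cells was at 12.8 and 11.4 CPM in Ctrl and 24.1 and 23.7 CPM in TKO. The fit restricted to these cells, added after the data were seen, gave 0.97 ± 0.16 (adjusted p = 0.0182). In S-called hair follicle-like cells the values were 13.2 and 12.8 CPM against 25.8 and 22.1 CPM. Basal-like cells called neither gave 8.74 and 10.4 CPM in Ctrl and 12.3 and 11.03 CPM in TKO, closer together, on 40 to 100 UMIs per library (0.25 ± 0.23, adjusted p = 0.622). In the same cells Uhrf1 was at 81.3 and 77.0 CPM in Ctrl and 64.4 and 57.3 CPM in TKO, and Dnmt1 at 68.5 and 64.7 CPM against 55.0 and 55.1 CPM, both lower in both TKO libraries. Neither passed in the fit of these cells (adjusted p = 0.114 and 0.238).

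A phase-standardised level was computed by weighting the 3 phase calls equally in every library, at 24.5% S, 38.3% G2/M and 37.1% neither by UMIs. The log2 ratio of the mean TKO to the mean Ctrl level went from 0.15 to 0.02 for Dnmt1 and from 0.18 to -0.07 for Uhrf1. For Dnmt3b it went from 1.004 to 0.81, with standardised levels of 8.93 and 10.03 CPM in Ctrl and 18.3 and 15.0 CPM in TKO. For Tet3 it was -0.28 before and after, and for Tet2 it went from -0.23 to -0.20. The ratio of Dnmt3a went from -0.14 to -0.21 and that of Tet1 from -0.10 to -0.13. Values after this weighting carry no test, and cells that differ within a phase call are not made alike by it.

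**Figure D5:**
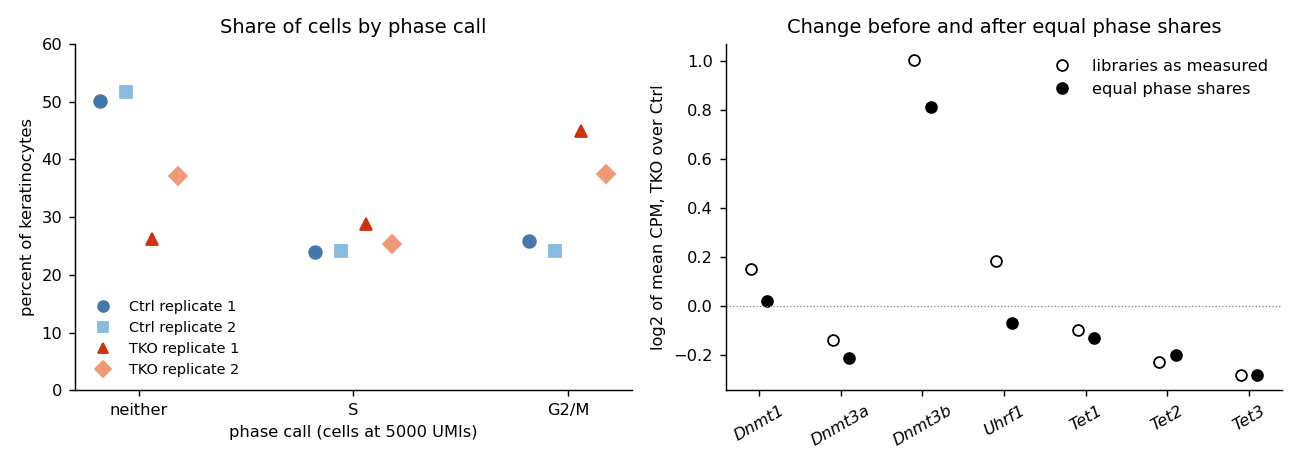
Left, percent of keratinocytes given each phase call in each library (axis from 0). Right, log2 of mean TKO over mean Ctrl CPM for the 7 genes in the libraries as measured (open) and with equal phase shares (filled): Dnmt1 went from 0.15 to 0.02 and Dnmt3b from 1.004 to 0.81.

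As the recombination was mosaic, TKO cells were also split by whether they held a UMI of 5 genes that are nearly silent in Ctrl and known from earlier results of these data to be derepressed in TKO (Npffr1, Gm11884, Col28a1, 1700030N03Rik and Gm42653). At 5000 UMIs per cell, 62.1% and 58.9% of TKO keratinocytes held one, against 0.67% and 0.54% in Ctrl. As the genes were chosen from these data, that contrast between the groups was fixed by the choice. In cells that held one, Dnmt3b was at 17.2 CPM in TKO replicate 1 (84 UMIs) and 17.1 CPM in TKO replicate 2 (90 UMIs). In TKO cells without one it was at 20.8 CPM (62 UMIs, exact 95% Poisson interval 16.0 to 26.7) and 18.8 CPM (69 UMIs, 14.6 to 23.7). The cells that held one had intervals of 13.7 to 21.3 and 13.7 to 21.0, so that the intervals, which cover counting error only, overlapped, and both kinds of TKO cells lay above the Ctrl cells without one, at 9.06 and 10.5 CPM. A cell without such a UMI is not shown to have kept its alleles, and a share of free RNA in the cells with one was not tested.

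Other cells of the same suspensions gave a further view of Dnmt3b. In immune-like cells it was at 11.97 and 11.03 CPM in Ctrl and 12.003 and 8.70 CPM in TKO on 15 to 60 UMIs, and the groups overlapped. In fibroblast-like cells it was at 5.01, 3.18, 7.59 and 2.08 CPM on 5 to 32 UMIs. Melanocyte-like cells gave 4.80 and 0 CPM in Ctrl and 22.9 and 6.75 CPM in TKO, on 1, 0, 18 and 4 UMIs, and both TKO libraries lay above both Ctrl libraries. Endothelial-like cells gave 0 and 31.1 CPM against 43.1 and 58.8 CPM, on 0, 2, 2 and 3 UMIs, again with both TKO libraries above. Erythroid-like cells gave 7.43 and 8.97 CPM in Ctrl and, slightly lower, 6.29 and 7.20 CPM in TKO on 4 to 31 UMIs. Counts this small leave the melanocyte-like and endothelial-like values open to counting error. Within keratinocytes the 6 immune markers summed to 2.46 to 6.19 CPM and the 6 endothelial markers to 13.0 to 32.2 CPM, both higher in the 2 TKO libraries. Muscle markers summed to 1.24 and 2.61 CPM in Ctrl and 11.5 and 21.0 CPM in TKO, and Schwann cell markers to 58.5 and 58.3 against 36.9 and 46.7 CPM. In basal-like, differentiating-like and hair follicle-like cells the muscle markers summed to at most 1.31, 0.716 and 1.45 CPM in any library. Actc1 and Myh15 were among the leading genes of the Merkel-like cluster. Red cell genes stood at 100.1 CPM in TKO replicate 2 and at 19.3 to 22.5 CPM elsewhere. The 6 fibroblast markers, led by Dcn, summed to 833 to 1130 CPM in Ctrl and TKO alike, with no marker higher in both TKO libraries. In basal-like cells they summed to 1249 and 1381 CPM in Ctrl and 1026 and 841 CPM in TKO. There the Schwann cell markers stood at 46.1 and 49.8 against 30.7 and 31.5 CPM and the endothelial markers at 17.3 and 18.4 against 37.7 and 24.7 CPM, so that none of these 3 sums overlapped between the groups. What part any of these RNAs has in the levels was not tested.

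The genes whose levels ran closest to each member were sought over 36 sums of library, class and phase, among 9065 other genes with a mean of at least 10 CPM (9066 for Tet1, whose own mean is below that). The sums share libraries and cells, so Pearson's r of log2(CPM + 1) is a description. Uhrf1 ran with Dut (r = 0.979), Nsd2 and Dnajc9, and Dnmt1 with Prim1 (r = 0.939), Mybl2 and Ccne2. Prim1 encodes a primase subunit and Ccne2 a cyclin of the entry into S phase. Dnmt3a ran with Nedd4 (r = 0.968), Epb41l3 and Septin9. Dnmt3b ran with Impa1 (r = 0.931), Ccdc88a and Txnrd1. Tet1 ran with Rest (r = 0.910), Rab11fip2 and Zfp618, Tet2 with Tnrc6b (r = 0.921), Phf21a and Ncor1, and Tet3 less closely with Ankrd11 (r = 0.812), Net1 and Zbtb38. Among the 21 pairs of members, r was highest for Dnmt3a and Tet1 (0.83), then 0.78 for Dnmt3a and Uhrf1, 0.76 for Dnmt1 and Uhrf1 and 0.75 for Dnmt3a and Dnmt3b, and it was lowest for Dnmt1 and Tet2 (-0.34), then -0.25 for Dnmt1 and Tet3 and -0.02 for Dnmt3b and Tet3.

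The rest of the methylation pathway was read from lists. Of 14 named genes of these and the phase lists that passed in all keratinocytes, 1 kept the call without Ctrl replicate 1 and 1 without Ctrl replicate 2, so most of the calls given next rest on both Ctrl libraries. Of 9 maintenance and targeting partners, among them Hells, Cdca7 and Lig1, 8 could be tested in all keratinocytes. None passed in any of the 7 fits, beside 1.85% to 13.6% of all genes. Their median log2 change was 0.02, beside -0.02 over all genes. Usp7, a deubiquitinase of UHRF1 and DNMT1, was at 127 and 124 CPM in Ctrl and 120 and 121 CPM in TKO. Uhrf2, the paralog of Uhrf1, was at 90.02 and 88.8 against 103 and 97.5 CPM (0.14 ± 0.09, adjusted p = 0.356).

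Among 7 genes listed as readers of methylated CpG, whose binding was not tested, 2 fell and none rose in all keratinocytes. Their median was -0.26, and 2.45% of all genes fell there. Zbtb4 was at 26.5 and 26.0 CPM in Ctrl and 14.1 and 15.6 CPM in TKO (-0.84 ± 0.13, adjusted p = 0.0264). Zbtb38 was at 27.8 and 26.3 CPM in Ctrl and 18.7 and 14.3 CPM in TKO (-0.74 ± 0.15, adjusted p = 0.0496). Both encode zinc finger proteins that bind methylated DNA, and both lost the call in all keratinocytes without either Ctrl library (adjusted p = 0.109 and 0.0975 for Zbtb4, 0.189 and 0.139 for Zbtb38), as did Zbtb4 without TKO replicate 1 and Zbtb38 without TKO replicate 2. Both also passed as lower in basal-like, hair follicle-like, S-called and G2/M-called cells, beside 4.43%, 6.03%, 3.32% and 4.89% of genes lower. Without Ctrl replicate 1 both lost the call in basal-like, S-called and G2/M-called cells. Without Ctrl replicate 2, Zbtb38 lost it in basal-like and S-called cells and Zbtb4 in hair follicle-like and G2/M-called cells, and without TKO replicate 2, Zbtb38 lost it in G2/M-called cells. Mbd2 (241, 261, 196 and 201 CPM; adjusted p = 0.0862) and Mbd3 (adjusted p = 0.430) did not pass.

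Of 6 cofactors and regulators of TET enzymes, none passed in all keratinocytes (median -0.21). In basal-like cells 1 of 5 tested fell: Cxxc5, a CXXC protein that binds CpG sites, went from 11.6 and 11.1 CPM to 6.76 and 6.04 CPM (-0.82 ± 0.16, adjusted p = 0.0259), beside 4.43% of genes lower. Without Ctrl replicate 1 or 2 the basal-like call was lost, with changes of -0.87 to -0.77 over the fits with 1 library left out. Cxxc5 also fell in G2/M-called cells, beside 4.89% of genes lower, a call likewise lost without Ctrl replicate 1 or 2. Ogt, the enzyme that attaches GlcNAc and a partner of TET proteins, and Idh1 fell in hair follicle-like cells, by 0.46 and 0.61 (adjusted p = 0.0313 and 0.0194), beside 6.03% of genes lower. With 1 library left out, Ogt passed only without TKO replicate 2, and Idh1 was lost without Ctrl replicate 2 (adjusted p = 0.142). In all keratinocytes Ogt stood at 210 and 191 CPM against 138 and 156 CPM and did not pass (adjusted p = 0.0830), nor did Idh2 (adjusted p = 0.296). Of 9 genes of base excision and demethylation, none passed in all keratinocytes or basal-like cells (medians 0.04 and 0.07). Apex1, an endonuclease of base excision, rose in hair follicle-like and G2/M-called cells by 0.38 and 0.41, beside 7.62% and 8.47% of genes higher. The former call held only without TKO replicate 1 and the latter was lost whichever library was left out (adjusted p at least 0.0503). Gadd45b ranged from 68.6 to 143 CPM over the libraries, and the groups overlapped.

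Among 8 genes that supply methyl donors, 2 rose and none fell in all keratinocytes (median 0.27; 4.24% of all genes rose). Mtr, methionine synthase, went from 21.0 and 22.5 CPM in Ctrl to 38.6 and 39.7 CPM in TKO (0.83 ± 0.10, adjusted p = 0.0168). Mthfd2, a mitochondrial enzyme of folate metabolism, went from 15.7 and 13.0 CPM to 27.02 and 23.1 CPM (0.78 ± 0.15, adjusted p = 0.0450). Without either Ctrl library neither passed (adjusted p = 0.0759 and 0.0666 for Mtr, 0.0776 and 0.195 for Mthfd2). In basal-like cells Mthfd2 went from 11.9 and 11.4 CPM to 25.8 and 23.5 CPM (1.09 ± 0.12, adjusted p = 0.00509), a call kept with each library left out. Mtr also passed in other fits, with its largest rise in differentiating-like cells (2.13 ± 0.31, adjusted p = 0.0417, edgeR), beside 1.85% of genes passing. In all keratinocytes Mat2a, which makes S-adenosylmethionine, was at 177 and 155 CPM against 216 and 199 CPM and did not pass (adjusted p = 0.169). Neither did Mthfd1 (adjusted p = 0.184).

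Of 11 germline genes that promoter methylation is known to silence in somatic cells, 4 had enough counts to be tested in all keratinocytes, and these could enter the test through their TKO counts alone. Ddx4, a germ cell helicase, had 6 and 4 UMIs against 33 and 66 in TKO and is given by its counts alone. Tdrd1, a Tudor protein of the piRNA pathway, had 258 and 108 UMIs against 697 and 1577 in TKO (2.88 ± 0.52, adjusted p = 0.0378), beside 4.24% of genes higher. With 1 library left out the change of Tdrd1 ran from 2.17 to 3.49. Its adjusted p was 0.0708 without Ctrl replicate 2 and at most 0.0309 with any other library left out. Sycp3 and Taf7l did not pass (adjusted p = 0.821 and 0.143), and the other 7 listed genes were not tested. Methylation itself was not measured in these libraries.

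The phase calls were scored from the S phase and G2/M lists, so counts over these lists are not independent of the phase shares. In all keratinocytes 4 of 40 S phase genes rose and none fell (median 0.25, beside -0.02 over all genes, of which 4.24% rose and 2.45% fell), led by Gmnn (93.2 and 104 CPM to 219 and 159 CPM, 0.92), Rrm2 (0.78), Tyms (0.69) and Rrm1 (0.54), whereas Nasp and Pola1 did not pass. Of 54 G2/M genes 9 rose and none fell (median 0.33), led by Psrc1 (1.02), Ube2c (0.86), Cdk1 (0.70), Bub1 (0.68) and Ccnb2. Top2a, at 218 and 225 CPM against 308 and 279 CPM, missed the threshold (0.38, adjusted p = 0.0649), as did Tmpo (adjusted p = 0.112). Without either Ctrl library Gmnn, Rrm2, Tyms, Rrm1, Psrc1, Cdk1 and Bub1 did not pass.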

How the data were processed

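Single cell RNA-seq libraries (10x 3′ v3) of 2 Ctrl and 2 TKO embryos were analysed. The authors deposited raw UMI counts per gene and cell, written by Cell Ranger 7.1.0 per the file headers (the methods name another version) on GRCm39; the gene annotation's release and whether intronic reads were counted are not given in the sources used here, so levels were not compared between genes. The members and lists were chosen with earlier results of these data known.

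Cells with at least 2000 genes and under 10% mitochondrial UMIs were kept, and the cells scored highest by Scrublet, 0.8% per 1000 barcodes, were left out as doublets. Clusters (scanpy 1.11.5, Harmony written for this work, Leiden resolution 1) were named from at least 3 markers; the keratinocytes were clustered again without the members, their pathway lists and 1340 genes that differed between genotypes. Clusters rich in keratins were never named muscle-, Schwann- or erythroid-like, a rule settled after the cells were seen. Phases were called on cells thinned to 5000 UMIs, with 75 shallower keratinocytes left out.

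UMIs were summed per library and class and tested with edgeR 4.0.16 (R 4.3.3): TMM factors, filterByExpr, quasi-likelihood test, Benjamini-Hochberg adjustment over all genes, threshold 0.05; DESeq2 1.42.0 was an alternative. Differences between classes or phases were tested with library as a block. Fits were tested on simulated data. From each pathway list, up to 5 passing genes (largest change) and 2 others (highest level) in all keratinocytes or basal-like cells were named, with the 3 genes most like each member; genes named from other fits, E2f8, Ccnb2, Idh1 and Ogt and Apex1 in single classes, were chosen after their values were seen. Libraries had 52746742 to 68328625 keratinocyte UMIs; intervals cover counting error only.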

Additional observations from a re-analysis of the deposited data

Results flagged for a closer look

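Uhrf1 was the only result that met a rule set for closer attention, because its TKO effect differed between 2 classes in a test of the difference itself. The log2 change in hair follicle-like cells exceeded that in basal-like cells by 0.39 ± 0.07 (SE; adjusted p = 0.0269, edgeR with library as a block, 2 libraries per group). Uhrf1 was higher in both TKO than in both Ctrl libraries in hair follicle-like cells, and the groups overlapped in basal-like cells. The adjusted p over the 10 alternatives ran from 0.00296 to 0.218. Shares of S-called, G2/M-called and other cells, and of clusters, differed between the groups in that class and were not part of the fit: the cluster with the lowest Uhrf1, led by Zfpm2, took 110 and 155 cells from Ctrl but 26 and 29 from TKO.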

How the results depend on the processing

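With Dnmt3b the single gene called among the 7 in most comparisons, the counts turned on it. In all keratinocytes 0 passed with no expression filter (1.62% of all genes did), 0 with the replicate block (3.77%), and 2, Dnmt3b and Tet3, with the crossed replicate block (17.3%). In hair follicle-like cells 2 passed with no filter (12.7% of genes), 0 in cells thinned to 5000 UMIs (8.76%) and 0 with uncorrected components (5.2%). In S-called keratinocytes 0 passed in thinned cells (6.37%). For the difference between hair follicle-like and basal-like cells 2 passed with no filter (4.54%), and 0 in thinned cells (2.29%), with doublets kept (2.8%), with uncorrected components (3.25%) and at Leiden resolution 2 (2.74%). With 1 library left out, 0 to 1 passed in all keratinocytes (2.49% to 8.61% of genes), 0 to 1 in basal-like (3.03% to 16.1%), 0 to 2 in hair follicle-like (3.38% to 15.9%), 0 to 1 in S-called (2.72% to 19.9%) and 0 to 1 in G2/M-called cells (5.26% to 12.8%), and 0 to 0 for that difference (0.505% to 3.57%); the lone library of a group is then assumed to vary like the others. The causes were not tested. Of 852 values of the 7 genes under alternatives, 776 kept their direction and side of the threshold.

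Signs turned only for estimates that had not passed. With 1 library left out the log2 change of Tet1 ran from -0.44 to 0.15 in all keratinocytes, -0.29 to 0.054 in basal-like, -0.32 to 0.12 in G2/M-called and -0.47 to 0.36 in cells called neither. That of Uhrf1 ran from -0.043 to 0.080 in basal-like, -0.16 to 0.62 in differentiating-like, -0.042 to 0.087 in S-called and -0.15 to 0.017 in G2/M-called cells. Dnmt1 ran from -0.071 to 0.092 in basal-like and -0.098 to 0.018 in S-called cells, and Dnmt3b from -0.10 to 0.67 in cells called neither. For differentiating-like minus basal-like cells the ranges were -0.93 to 0.33 for Dnmt3b, -0.075 to 0.12 for Tet2, -0.072 to 0.20 for Tet3, -0.33 to 0.082 for Dnmt3a and -0.15 to 0.63 for Uhrf1. For hair follicle-like minus basal-like cells they were -0.19 to 0.17 for Dnmt3b, -0.069 to 0.12 for Tet3 and -0.00202 to 0.078 for Dnmt3a. Among list genes, in all keratinocytes and basal-like cells, they were -0.54 to 0.47 and -0.26 to 0.80 for Gadd45b, -0.48 to 0.68 and -1.39 to 0.033 for Sycp3, and -0.16 to 0.088 and -0.40 to 0.00969 for Pola1.

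In thinned cells the sign turned for Gadd45b in all keratinocytes (-0.042), Tet1 in basal-like cells (0.049), Uhrf1 in S-called cells (-0.057), Tet2 between differentiating-like and basal-like cells (-0.080), Dnmt3b between hair follicle-like and basal-like cells (0.080) and Tet2 between S-called cells and those called neither (0.11). With doublets kept it turned for Uhrf1 in basal-like cells (-0.00822), Tet1 in cells called neither (0.014), Tet2 between differentiating-like and basal-like cells (-0.035) and Dnmt3b between hair follicle-like and basal-like cells (0.12). With uncorrected components Uhrf1 turned in differentiating-like cells (-0.10) and against basal-like cells (-0.18), and at Leiden resolution 2 Dnmt3a turned there (0.012). DESeq2's size factors turned Tet1 in cells called neither (0.00303) and Tet3 between hair follicle-like and basal-like cells (-0.00454), and no filter turned Tet3 (-0.016) and Dnmt3a (-0.00453) there. With cells near a score threshold left out, Uhrf1 in S-called cells (-0.013) and Tet1 in cells called neither (0.049) turned, and with phases from unthinned cells Tet1 in cells called neither (0.018). In basal-like cells only, an alternative added after the data were seen, Uhrf1 in S-called (-0.024), Tet1 in G2/M-called (0.017) and Dnmt1 (-0.30) and Tet1 (0.52) in cells called neither turned.

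Replicate numbers did not pair the libraries, as the deviations of same-numbered libraries correlated at -0.41 over 10752 genes. The replicate block turned Gadd45b in all keratinocytes (-0.00336) and lost Dnmt3b there (adjusted p = 0.0776, edgeR), with 755 genes called against 1340. The crossed pairing, added after the data were seen, called 3475 genes there, with Gadd45b at -0.00332. Over all genes the calls in all keratinocytes were also 2512 by DESeq2, 550 with no filter and 523 to 1814 with 1 library left out; in basal-like cells they were 2122, against 1184 in thinned cells, 3298 with no filter and 555 to 2976 with 1 library left out. The differences of S and G2/M shares, 3.05 and 16.2 percentage points, ran from 1.39 to 4.71 and from 12.5 to 19.96 with 1 library left out. Uncorrected components and Leiden resolution 2 leave the cells of the all-keratinocyte and phase fits as they are and were not run there, and Dnmt3b and Tet1 in differentiating-like cells had too few thinned counts to be tested. Counts of 20 to 50 UMIs limit both genes in that class.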
